A study of Rattus norvegicus with 43 samples.

Results

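Kidney cortex of male rats labelled SSper1-/- (Per1KO) was compared with that of SS rats, both on 4% NaCl for 3 weeks and both taken at 2pm, in the inactive phase. SS is the Dahl salt-sensitive strain, and the label places the Per1 deletion on that strain. The comparison holds the 10 libraries that carry the diet, hour and label in their titles, 5 Per1KO and 5 SS, of 43 libraries in the study. The other groups used here are Per1KO and SS on 4% NaCl at 2am, in the active phase (5 libraries each), and Per1KO and SS on 0.4% NaCl at 2pm (6 libraries each). Neither the deleted stretch of Per1 is stated, nor how many founder lines were bred, nor whether each library is a separate rat. All p-values therefore measure the spread between these libraries, which may be technical in part.

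PER1 is a repressor of the circadian clock. CLOCK and BMAL1 (gene Arntl) bind E-boxes and switch on the Per and Cry genes, whose proteins then block them. Nr1d1 and Nr1d2 encode REV-ERB repressors of Arntl, and Dbp, Tef and Hlf encode activators that bind D-boxes and carry the rhythm to other genes. In salt-sensitive rats a high-salt diet raises blood pressure and injures the kidney, whose proximal tubule draws its energy from mitochondrial oxidation.

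The values are FPKM (fragments scaled by gene length and library size, as the authors deposited them), and each library rests on 15.3 M to 25.2 M fragments. Differences are Per1KO minus SS of log2(FPKM + 1), given with the standard error (SE) of the limma fit. A gene is called where the Benjamini-Hochberg adjusted p is below 0.05 over the 14899 genes tested, which reached 1 FPKM in 5 or more high-salt libraries. The library names fall into 2 number series. Per1KO replicates 1 to 3 and SS replicates 1 and 2 are AZ00x libraries, while Per1KO replicates 4 and 5 and SS replicates 3 to 5 run from AZ44 to AZ61. What the numbers stand for is not stated.

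Among the 5 SS libraries, clock genes split by number series. SS replicates 4 and 5 also stood apart in segment markers. Slc5a2, the glucose carrier of the early proximal tubule, had 2.01 and 16.2 FPKM in these libraries. The mean level of 12 podocyte genes was also lowest there of the 5 SS libraries. The main lists and genes that move with these libraries are also given without them. The authors' scaling also followed the label: relative to the fragments counted, Per1KO libraries were divided by a size 1.023 to 1.158 times as large, and SS libraries by 0.882 to 0.972 times. Rescaling to total fragments moved the median difference over all genes to 0.198 (log2), against 0.003 as deposited, so changes are relative to that middle gene.

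The promoters of 4 clock genes are shown because the clock results turn on genes of the E-box and D-box loops. The stretches were taken from RefSeq (GRCr8), lie before the annotated start site, read 5′ to 3′ on the gene's strand, and carry an E-box (CACGTG) or D-box (TTATGTAA) in capitals. For Nr1d1 RefSeq gave 2 windows, and the stretch comes from 1 of them. They are chr10:84229595-84229694 on the minus strand for Nr1d1, chr7:115206587-115206686 on the plus strand for Tef, chr2:186112257-186112356 on the minus strand for Ciart and chr9:99497134-99497233 on the minus strand for Per2.
Nr1d1 E-box: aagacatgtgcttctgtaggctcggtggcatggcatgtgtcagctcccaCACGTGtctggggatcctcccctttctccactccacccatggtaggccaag
Tef E-box: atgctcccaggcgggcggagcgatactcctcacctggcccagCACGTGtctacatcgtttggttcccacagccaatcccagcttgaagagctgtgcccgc
Ciart E-boxes: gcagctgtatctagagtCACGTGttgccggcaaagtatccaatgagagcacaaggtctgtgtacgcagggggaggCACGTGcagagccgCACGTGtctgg
Per2 D-box: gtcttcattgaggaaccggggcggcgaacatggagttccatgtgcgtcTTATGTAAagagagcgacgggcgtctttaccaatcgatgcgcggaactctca
Both strands were searched, and the E-box reads the same on either. Ciart held 3 E-boxes. Of 23 clock and clock output genes with a RefSeq window, from 250 bases before to 50 after the start, 6 held an E-box and 1 held a D-box. Of all 33469 windows, 6.42% held the E-box and 0.893% the D-box. A match is a description of letters and not a site shown to be used.

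Per1 itself did not separate the groups. Its mRNA stood at 20.9, 13.0, 16.8, 15.5 and 8.64 FPKM in Per1KO libraries, against 19.97, 12.7, 8.57, 8.83 and 12.1 FPKM in SS libraries. The groups overlap, and the difference was 0.26 ± 0.24 (SE, adjusted p = 0.45 by limma). Since the deleted part is not given, reads from the rest of the transcript neither verify nor contradict the label.

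Among core clock genes the clearest difference was lower Nr1d1 in Per1KO. It had 15.2, 12.3, 11.0, 10.7 and 14.4 FPKM in Per1KO, against 33.0, 30.2, 31.5, 13.4 and 24.2 FPKM in SS. Only SS replicate 4 reached down into the Per1KO range. The difference was -0.95 ± 0.19 (adjusted p = 0.0014), with -1.25 among AZ00x libraries and -0.76 among AZ44 to AZ61 libraries (adjusted p = 0.067).
Rora, which encodes an activator of Arntl, had 3.48, 3.35, 3.75, 3.90 and 3.67 FPKM in Per1KO, against 7.90, 8.11, 6.01, 5.12 and 3.79 FPKM in SS. It fell by 0.59 on the log2 scale (adjusted p = 0.0046), with -0.99 among AZ00x libraries and -0.30 among AZ44 to AZ61 libraries (adjusted p = 0.21 by limma in the second). Csnk1e, a kinase that marks PER proteins for breakdown, was higher in all 5 Per1KO libraries (10.5 to 11.6 FPKM) than in any SS library (6.77 to 9.38 FPKM). Its difference was 0.38 ± 0.09 (adjusted p = 0.0033), with 0.57 and 0.25 in the same order of series (adjusted p = 0.13 in the second). These were the 3 calls among 16 of 18 core clock genes tested, 1 higher and 2 lower, with a list median of 0.04. Over all genes tested 14.2% were called higher and 15.7% lower, so the core clock count is no larger than that background. None of 14 clock output genes tested was called by limma, and 1 had an unadjusted p below 0.05, beside 6078 of all 14899 genes. By number series, 1 rose and 8 fell among AZ00x libraries (median -0.685). Among AZ44 to AZ61 libraries 4 rose and 0 fell (median 0.30). The difference between series passed for 6 of the 14 toward AZ44 to AZ61 and for 1 toward AZ00x.

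For several other clock genes the SS libraries differed among themselves by number series. Arntl had 3.31, 3.14, 4.11, 3.77 and 3.00 FPKM in Per1KO, close together in both number series. In SS it had 0.53 and 1.16 FPKM in replicates 1 and 2, but 9.27, 12.5 and 9.94 FPKM in replicates 3 to 5. Per1KO thus lay between the SS libraries of the 2 series, above the first and below the second. Per2 mirrored this, with 9.07 to 13.3 FPKM in Per1KO, against 20.8 and 22.9 FPKM in SS replicates 1 and 2 and 2.66 to 3.87 FPKM in SS replicates 3 to 5.

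Dbp followed Per2. It had 59.6, 33.5, 38.8, 45.2 and 63 FPKM in Per1KO, against 196, 137, 33.6, 8.13 and 24.9 FPKM in SS. Over all 10 libraries the Dbp difference was 0.03 ± 0.55 (adjusted p = 0.98). It was -1.92 ± 0.38 among AZ00x libraries (adjusted p = 0.0019) and 1.43 ± 0.38 among AZ44 to AZ61 libraries (adjusted p = 0.026).
Arntl reversed in the opposite sense, with 1.31 ± 0.15 among AZ00x libraries and -1.40 ± 0.15 among AZ44 to AZ61 libraries. The difference between the series was -2.70 ± 0.22 for Arntl (adjusted p = 8.2e-06), 3.35 ± 0.53 for Dbp (adjusted p = 0.0065), 3.01 ± 0.38 for Hlf (adjusted p = 0.0016) and 2.41 ± 0.32 for Per2 (adjusted p = 0.0018).
Nfil3, which encodes a D-box repressor, had 5.66 to 11.4 FPKM in Per1KO, against 2.17 and 1.20 FPKM in SS replicates 1 and 2 and 6.46 to 10.1 FPKM in SS replicates 3 to 5. Of the E-box genes printed above, Tef and Ciart showed the same split. Tef had 25.3 to 32.4 FPKM in Per1KO, against 61.8 and 68.0 FPKM in the first 2 SS libraries and 14.2 to 24.0 FPKM in the other 3. Ciart, whose protein blocks CLOCK and BMAL1, had 0.45 to 1.10 FPKM in Per1KO, against 5.68 and 3.91 FPKM and then 0.07 to 0.32 FPKM in SS. Ciart did not pass the filter on low values and was not tested. Of the 6 genes with an E-box in a window, the difference between series passed for Tef (1.885 ± 0.252, adjusted p = 0.0018 by limma). It did not pass for Nr1d1 (0.485), Bhlhe40 (0.087), Bhlhe41 (0.962) or Lonrf3 (0.71), with adjusted p from 0.085 to 0.85. Arntl, Per2, Dbp and Nfil3, which split, held no E-box in their windows.

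**Figure D1:**
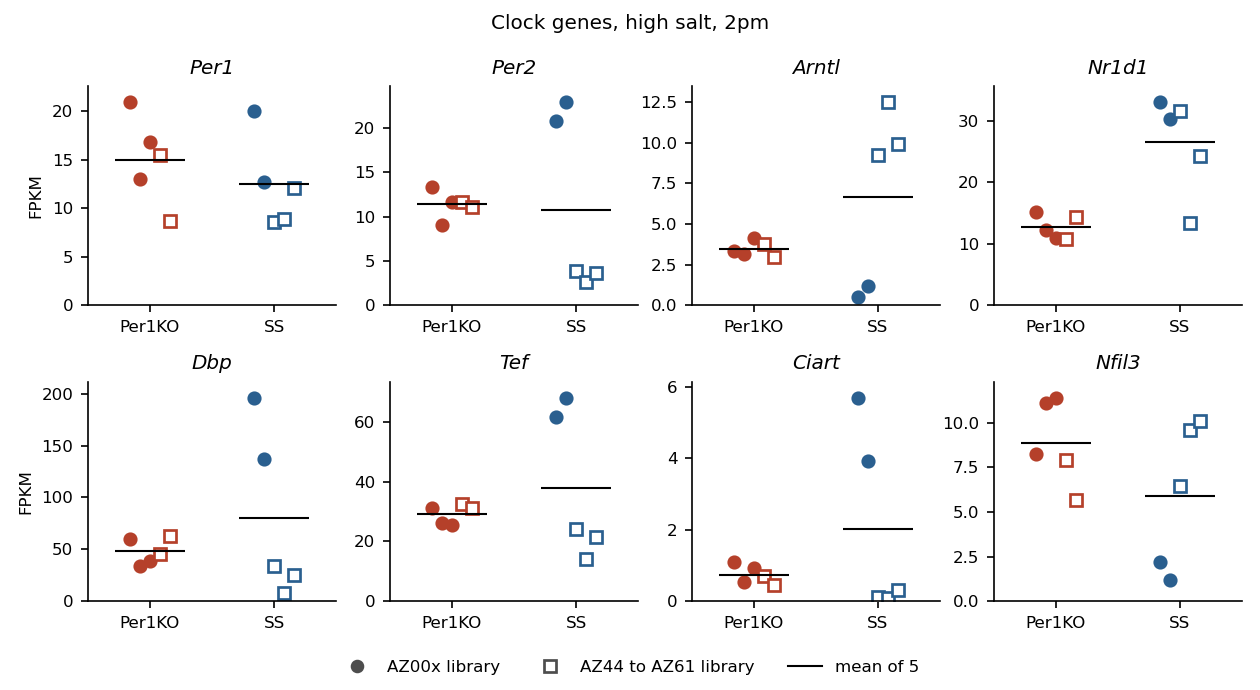
FPKM of 8 clock and clock output genes in each library, Per1KO left of SS in every panel. Filled circles are AZ00x libraries, open squares AZ44 to AZ61 libraries and the line is the mean of 5; the SS libraries of the 2 series lie apart for Per2, Arntl, Dbp, Tef, Ciart and Nfil3, and the Per1KO libraries lie between them for Per2, Arntl, Tef and Ciart.

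For comparison, SS libraries on 0.4% NaCl at 2pm had 0.80 to 2.94 FPKM of Arntl and 121 to 266 FPKM of Dbp. SS libraries on 4% NaCl at 2am had 16.4 to 19.6 FPKM of Arntl, 18.6 to 24.2 FPKM of Dbp and 1.06 to 2.58 FPKM of Nr1d1. SS replicates 3 to 5 of the high-salt 2pm group lay between those groups for Arntl. Their Per2 level, 2.66 to 3.87 FPKM, lay below both, since SS libraries had 9.94 to 18.5 FPKM on 0.4% NaCl at 2pm and 16.7 to 22.3 FPKM on 4% NaCl at 2am. Collection day, hour within the afternoon and library preparation are not given per library, and their part in the split was not tested.

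Beyond the clock, 4445 genes were called: 2112 of 14899 were higher in Per1KO (14.2%) and 2333 were lower (15.7%). All 5 Per1KO libraries lay above all 5 SS libraries for 948 genes (6.36%) and below them for 1103 (7.4%). With libraries scaled to total fragments, 4740 genes were higher and 843 lower, so 84.9% of calls were higher, against 47.5% as deposited. With only these 10 libraries in the fit, 2592 genes were called. Of the 4445 called genes, 4421 had the same sign in both number series. The calls pool both series, so that agreement follows largely from how the genes were chosen. Of genes called among AZ00x libraries alone, 76.4% had the same sign among AZ44 to AZ61 libraries. The reverse share was 82.3%, and over all genes tested 63.5% had the same sign.

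Lower in Per1KO were, first, the mRNAs of the mitochondrial respiratory chain, the enzyme complexes that carry electrons to oxygen and make ATP. Of 70 nuclear subunits tested (76 listed), 61 fell and 0 rose, with a list median of -0.49. In 46 of the 70, all 5 Per1KO libraries lay below all 5 SS libraries, against 7.4% of all genes. The mean level of these subunits, in log2(FPKM + 1), was 7.12 to 7.22 in Per1KO libraries and 7.45 to 7.77 in SS libraries.

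Cytochrome c (Cycs), the electron carrier between complexes III and IV, fell most among the subunits called. It had 398, 306, 247.2, 398 and 410 FPKM in Per1KO, against 610, 834, 745, 967 and 984 FPKM in SS. Its groups did not overlap, and its difference was -1.24 ± 0.14 (adjusted p = 2.7e-05). Cycs has processed copies elsewhere in the genome, and how reads shared with them were counted is not stated.
Of complex I, which takes electrons from NADH, 28 of 32 subunits tested fell. Its subunit Ndufa10 had 64.1, 58.2, 53.9, 58.5 and 55.6 FPKM in Per1KO, against 86.9, 84.3, 90.6, 81.3 and 91.0 FPKM in SS (-0.57 ± 0.07, adjusted p = 2.4e-05). Of complexes II to V, 33 of 38 fell. Sdhd, an anchor of succinate dehydrogenase, had 167, 165, 157, 159 and 186 FPKM in Per1KO, against 242 to 261 FPKM in SS (-0.62 ± 0.07, adjusted p = 2.3e-05).

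Transcripts of the mitochondrial genome, which encodes the remaining subunits, gave a weaker picture. Of 11 tested, 2 fell, with a median of -0.38. The share of all fragments that came from the mitochondrial genome overlapped between groups, at 12.8% to 22.3% in Per1KO libraries and 16.2% to 18.8% in SS libraries. Mt-nd5, a complex I subunit encoded there, had 3000 to 5220 FPKM in Per1KO and 4040 to 5920 FPKM in SS (-0.41 ± 0.14, adjusted p = 0.038), and it was called in only 4 of 10 fits that each left out 1 library and not with total-fragment scaling (-0.18).

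Pyruvate oxidation and the tricarboxylic acid cycle moved with the respiratory chain. Of 20 genes tested, 17 fell and 0 rose, with a median of -0.44. Mpc1 and Mpc2 form the carrier that brings pyruvate into mitochondria. Mpc2 had 379, 392, 347, 399 and 391 FPKM in Per1KO, against 602, 624, 610, 625 and 681 FPKM in SS (-0.72 ± 0.08, adjusted p = 2.3e-05). Mpc1 differed by -0.76 ± 0.10 (adjusted p = 5.7e-05), and neither gene's groups overlapped. Pdhb, a subunit of pyruvate dehydrogenase, had 64.8 to 78.9 FPKM in Per1KO, against 112 to 133 FPKM in SS (-0.76 ± 0.10, adjusted p = 5e-05).

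These falls were smaller but kept their sign when libraries were scaled to total fragments. The median was then -0.25 for respiratory subunits, with 39 lower and 0 higher, and -0.21 for pyruvate and tricarboxylic acid cycle genes, with 10 lower and 0 higher. By number series, 50 of 70 respiratory subunits were lower among AZ00x libraries (median -0.54) and 35 among AZ44 to AZ61 libraries (median -0.43). Of the 20 pyruvate and tricarboxylic acid cycle genes, 20 were lower among AZ00x libraries (median -0.70) and 6 among AZ44 to AZ61 libraries (median -0.25).

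Fatty acid oxidation, the main fuel of the proximal tubule, changed in fewer genes. Of 35 tested, 11 fell and 1 rose, with a median of -0.23. Acadm, which starts the breakdown of medium-chain fatty acids, had 140, 138, 124, 151 and 166 FPKM in Per1KO, against 214, 220, 235, 243 and 282.9 FPKM in SS (-0.73 ± 0.10, adjusted p = 6.3e-05). Catalase (Cat), a peroxisomal enzyme that clears hydrogen peroxide, averaged 255.6 ± 52.4 FPKM in Per1KO and 462 ± 28.7 FPKM in SS (SD, n = 5 each; -0.88, adjusted p = 0.00055 by limma). The counts differed between the number series. Among AZ00x libraries 19 fell and 0 rose (median -0.56), among AZ44 to AZ61 libraries 3 fell and 2 rose (median -0.04), and the difference between series passed for 6 of 35. Without SS replicates 4 and 5, 18 fell and 1 rose (median -0.35). With total-fragment scaling 5 fell and 1 rose (median -0.003).

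Antioxidant genes shared the direction, with 13 of 22 glutathione and antioxidant genes lower and 1 higher (median -0.39). With total-fragment scaling 7 were lower and 3 higher (median -0.16). Prdx3, the mitochondrial peroxiredoxin, had 110, 121, 102, 119 and 112 FPKM in Per1KO, against 150, 162, 156, 170 and 176 FPKM in SS (-0.53 ± 0.06, adjusted p = 3.4e-05). Sod1, the cytosolic superoxide dismutase, had 489 to 547 FPKM in Per1KO and 577 to 1060 FPKM in SS (-0.66 ± 0.13, adjusted p = 0.0012). Both genes' groups lay apart. In sterol and lipid synthesis, 7 of 21 genes fell and 0 rose (median -0.29). With total-fragment scaling 2 fell and 1 rose (median -0.07), and among AZ00x libraries 3 fell and 1 rose. Fdft1, which makes squalene, averaged 27.8 ± 4.10 FPKM in Per1KO and 40.95 ± 7.42 FPKM in SS (SD, n = 5 each; adjusted p = 0.0025 by limma).

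The 12 largest falls among called genes with a symbol included several proximal tubule genes. Of the 12 largest rises, 6 were small noncoding RNA genes (Mir142, SNORD14, U7, SNORD72, SNORD45 and 5S_rRNA) and are not described further. Kap, the androgen-regulated kidney protein of the proximal tubule, had 2210, 1000, 392, 1740 and 1870 FPKM in Per1KO, against 3190, 6630, 4950, 8790 and 6970 FPKM in SS. No Per1KO library reached the lowest SS library. The difference was -2.23 ± 0.39 (adjusted p = 0.00049), at -2.27 among AZ00x libraries and -1.89 among AZ44 to AZ61 libraries.
Cyp2c11, a male-type steroid hydroxylase whose reads can be shared with its gene family, had 8.12, 5.30, 0.50, 5.17 and 4.36 FPKM in Per1KO, against 12.8, 74.5, 17.6, 39.8 and 49.5 FPKM in SS (-2.75 ± 0.65, adjusted p = 0.0042). Its groups did not overlap.

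Slc7a13, an aspartate and cystine carrier of the late proximal tubule, was far more uneven. It had 267, 100, 19.7, 311 and 238 FPKM in Per1KO, against 85.2, 943, 1150, 3000 and 1910 FPKM in SS. SS replicate 1 lay inside the Per1KO range. The difference was -2.73 ± 0.91 (adjusted p = 0.03), and it was called in only 4 of 10 fits that left out 1 library. Its neighbour in family, Slc7a12, was called in 7 of 10 (-2.89 ± 0.89, adjusted p = 0.021). Without SS replicates 4 and 5 neither was called, at -1.77 for Slc7a13 and -1.79 for Slc7a12.

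**Figure D2:**
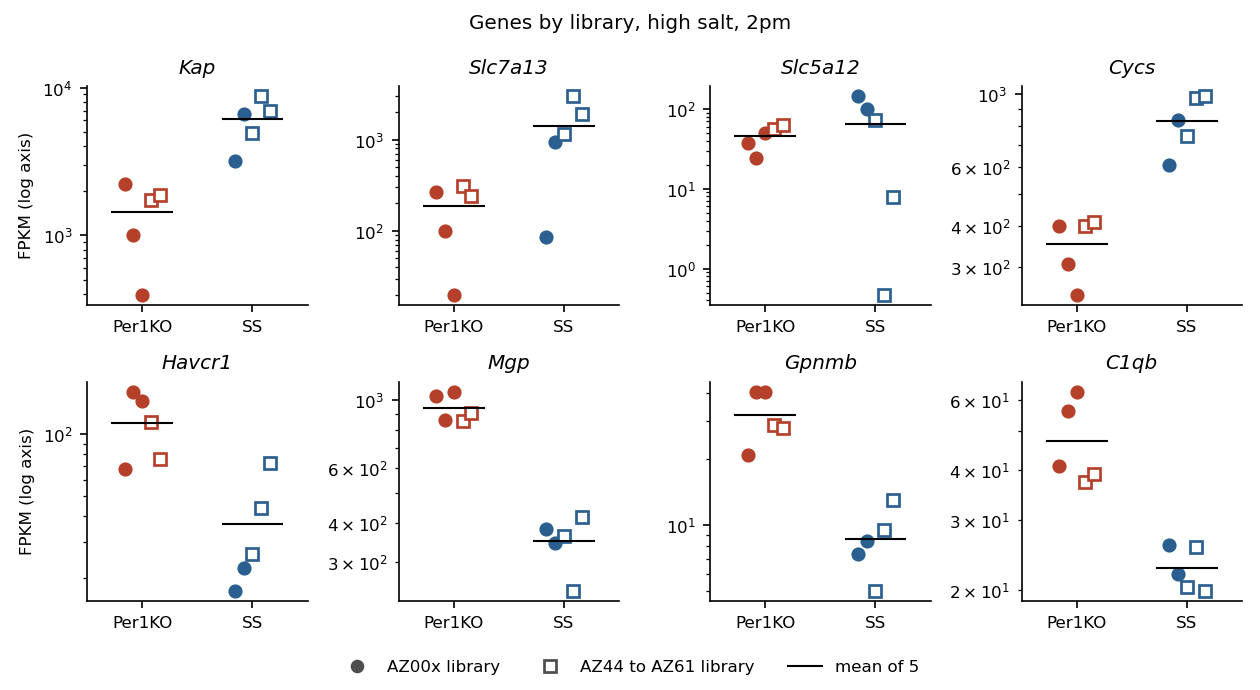
FPKM of 8 genes in each library on logarithmic axes, Per1KO left of SS, with symbols as in the clock plot and the line at the mean of 5. Kap and Cycs lie lower and Mgp, Gpnmb and C1qb higher in Per1KO without overlap, SS replicate 1 overlaps Per1KO for Slc7a13, SS replicate 5 overlaps it for Havcr1, and Slc5a12 drops to 0.46 and 7.89 FPKM in SS replicates 4 and 5.

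Proximal tubule transport genes, which reabsorb solutes from the filtrate, fell in 13 of 34 tested, and 0 rose (median -0.32). Aqp1, the water channel of the proximal tubule and thin limb, had 264 to 453 FPKM in Per1KO, against 603 to 853 FPKM in SS (-1.01 ± 0.14, adjusted p = 0.00012). Slc22a12, the urate exchanger, had 78.0 to 120 FPKM in Per1KO and 135 to 219 FPKM in SS (-0.79 ± 0.13, adjusted p = 0.00038). Amn, which anchors the endocytic receptor cubilin, had 67.4 to 101 FPKM in Per1KO and 103 to 200 FPKM in SS (-0.78 ± 0.15, adjusted p = 0.00085).

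SS replicates 4 and 5 weigh on this list. Without them 25 of 34 transport genes fell and the median was -0.86. Among AZ00x libraries 17 fell (median -1.11), and among AZ44 to AZ61 libraries 6 fell (median 0.19). Slc5a12, a lactate carrier of the early proximal tubule, had 37.5, 24.5, 49.3, 56.2 and 62 FPKM in Per1KO, against 145, 98.7, 72.8, 0.46 and 7.89 FPKM in SS. Its difference was 0.73 ± 0.85 (adjusted p = 0.55) over all 10 libraries and -1.20 without those 2.
Fbp1, an enzyme of glucose synthesis in this segment, had 407, 275, 299, 416 and 438 FPKM in Per1KO, against 841, 751, 765, 356 and 496 FPKM in SS. It differed by -1.30 ± 0.24 among AZ00x libraries (adjusted p = 0.0013) and by -0.27 ± 0.24 among AZ44 to AZ61 libraries (adjusted p = 0.5).

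In the renin-angiotensin system, which sets vascular tone and sodium retention, 5 of 10 genes tested fell and 0 rose (median -0.54). Anpep, an aminopeptidase that trims angiotensin peptides, had 181, 111, 68.8, 172 and 141 FPKM in Per1KO, against 210, 397, 396, 472 and 517 FPKM in SS (-1.57 ± 0.25, adjusted p = 0.00026). Atp6ap2, the prorenin receptor, differed by -0.39 ± 0.08 (adjusted p = 0.0013) but by -0.15 under total-fragment scaling, where it was not called.

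Of 12 distal convoluted tubule genes, 3 rose and 2 fell (median 0.25), beside 14.2% higher and 15.7% lower over all genes. With total-fragment scaling 7 rose and 1 fell (median 0.45). That scaling gave 4740 higher and 843 lower of all 14899 genes (median 0.198). Trpv5, the calcium channel of the distal tubule, had 18.8, 18.8, 22.7, 9.21 and 14.7 FPKM in Per1KO, against 9.10, 7.53, 4.85, 1.52 and 7.91 FPKM in SS (1.41 ± 0.32, adjusted p = 0.0036). Wnk4, a kinase that controls the thiazide-sensitive cotransporter, had 5.34 to 6.99 FPKM in Per1KO and 3.92 to 5.54 FPKM in SS (0.42 ± 0.09, adjusted p = 0.0022). Cul3, part of the ligase that degrades WNK kinases, differed by -0.34 ± 0.07 (adjusted p = 0.0025) and was not called under total-fragment scaling (-0.12).
Fxyd2, the gamma subunit of the sodium pump, had 2040 to 3030 FPKM in Per1KO and 2850 to 4320 FPKM in SS (-0.60 ± 0.15, adjusted p = 0.005). Edn1, encoding endothelin-1, which inhibits sodium reabsorption in the collecting duct, had 5.27, 8.02, 6.56, 4.78 and 4.68 FPKM in Per1KO, against 2.17, 2.36, 2.28, 3.16 and 3.57 FPKM in SS (0.88 ± 0.19, adjusted p = 0.0021). Cyp24a1, which inactivates vitamin D, had 20.1, 44.3, 54.3, 27.9 and 25.1 FPKM in Per1KO, against 20.2, 13.1, 12.8, 2.14 and 10.4 FPKM in SS (1.61 ± 0.41, adjusted p = 0.0067). Umod, the uromodulin of the thick ascending limb, averaged 814 ± 258 FPKM in Per1KO and 1587 ± 547 FPKM in SS (SD, n = 5 each; adjusted p = 0.025 by limma), and was called in 7 of 10 fits without 1 library and neither with total-fragment scaling (-0.72) nor without SS replicates 4 and 5 (-0.64).

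Higher in Per1KO were genes of tubular injury. Of 24 tested, 17 rose and 0 fell, with a median of 0.87. Havcr1, encoding the injury marker KIM-1, had 67.6, 161, 145, 115 and 76.0 FPKM in Per1KO, against 17.3, 22.3, 26.1, 43.7 and 72.8 FPKM in SS. SS replicate 5 reached the low end of the Per1KO range. The difference was 1.72 ± 0.50 (adjusted p = 0.016). Clu, encoding the secreted chaperone clusterin, had 460, 1030, 959, 554 and 426 FPKM in Per1KO, against 161, 167, 192, 341 and 347 FPKM in SS, with no overlap (1.48 ± 0.34, adjusted p = 0.0038).
Vim, the mesenchymal filament vimentin, had 153 to 252.7 FPKM in Per1KO and 64 to 116 FPKM in SS (1.11 ± 0.23, adjusted p = 0.002). Icam1, a leukocyte adhesion molecule, had 20.4 to 30.5 FPKM in Per1KO and 11.2 to 16.6 FPKM in SS (0.76 ± 0.12, adjusted p = 0.00028). Plaur, the urokinase receptor, had 3.24 to 5.31 FPKM in Per1KO and 1.24 to 2.10 FPKM in SS (0.88 ± 0.14, adjusted p = 0.00029).

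The injury result differed in strength by number series. Among AZ00x libraries 19 of 24 genes rose (median 1.43), and among AZ44 to AZ61 libraries 0 were called by limma (median 0.45). There 3 of 24 had an unadjusted p below 0.05, beside 4293 of all 14899 genes, and 20 of 24 differences were positive. For 3 of the 24 the difference between series passed, all toward the AZ00x libraries. Without SS replicates 4 and 5, 21 of 24 rose (median 1.15). The mean level of the list was 5.36 to 5.87 in Per1KO libraries. It was 4.16 and 4.35 in SS replicates 1 and 2, and 4.597, 5.27 and 5.25 in SS replicates 3 to 5.

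Extracellular matrix genes were the most even rise. Of 34 tested, 26 rose and 0 fell (median 0.70), and in 16 of the 34 all Per1KO libraries lay above all SS libraries, against 6.36% of all genes. Mgp, which encodes a matrix protein that blocks calcification, had 1030, 857, 1060, 850 and 903 FPKM in Per1KO, against 381, 344, 364, 241 and 418 FPKM in SS (1.44 ± 0.20, adjusted p = 8.9e-05). Mgp is not on the list and was named for its difference in both series, 1.43 and 1.40. Loxl1, an enzyme that cross-links elastin, had 54.0, 56.8, 69.8, 48.5 and 50.4 FPKM in Per1KO, against 27.7, 20.6, 26.1, 16.4 and 26.0 FPKM in SS (1.24 ± 0.15, adjusted p = 3.5e-05).
Tgfb1, the growth factor that drives matrix synthesis, had 24.2 to 31.5 FPKM in Per1KO and 10.6 to 15.6 FPKM in SS (0.89 ± 0.12, adjusted p = 7.8e-05). Timp2, an inhibitor of matrix proteases, differed by 0.67 ± 0.10 (adjusted p = 0.00015), and the fibrillar collagen gene Col5a2 by 0.83 ± 0.13 (adjusted p = 0.00017). None of these 4 list genes overlapped between groups. By series, 18 matrix genes rose among AZ00x libraries (median 0.67) and 14 among AZ44 to AZ61 libraries (median 0.67). Pericyte and smooth muscle markers moved with the matrix genes: 4 of 9 rose, and their FPKM summed to 153 to 225 in Per1KO libraries and to 97.2 to 141 in SS libraries. Pdgfrb, the pericyte receptor for platelet-derived growth factor, differed by 0.82 ± 0.13 (adjusted p = 0.00029). Their part in the matrix result was not tested, and in bulk cortex more cells of a type and more RNA per cell cannot be told apart.

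**Figure D3:**
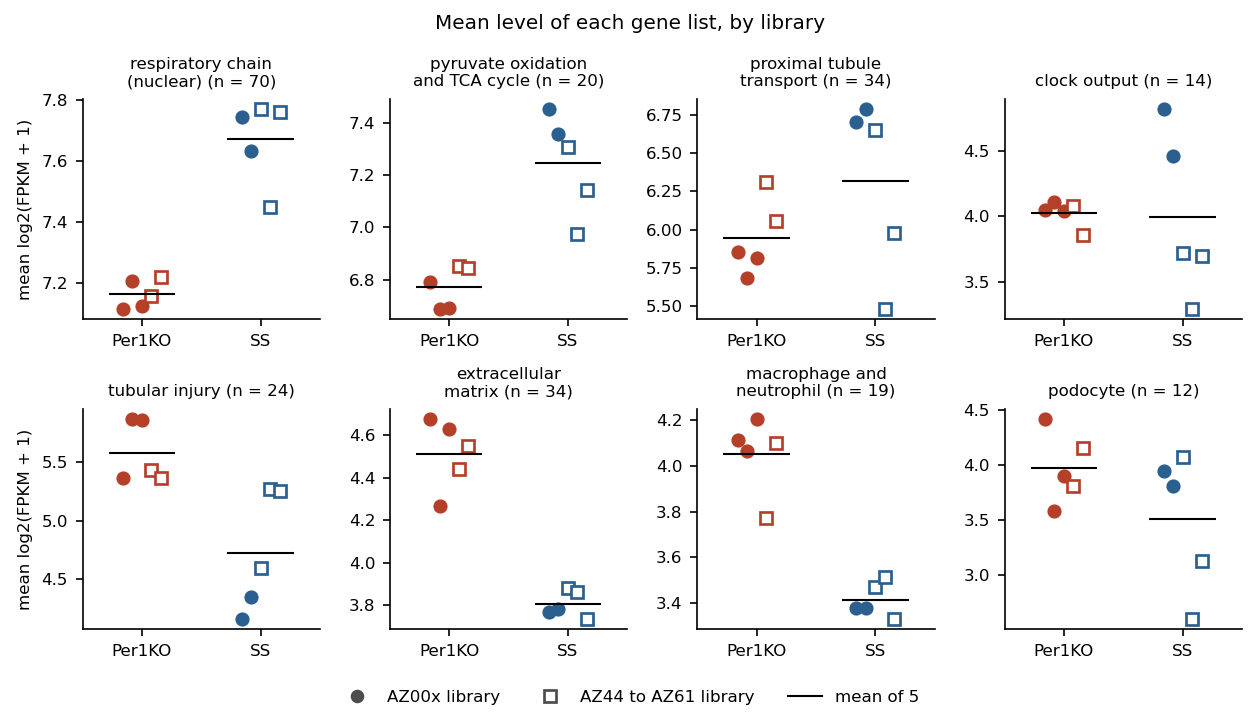
Mean log2(FPKM + 1) over the tested members of 8 gene lists in each library, Per1KO left of SS, with n the number of genes and symbols as in the clock plot. Respiratory chain, tricarboxylic acid cycle, injury, matrix and macrophage lists separate the groups in all 10 libraries, while clock output splits the SS libraries by series and SS replicates 4 and 5 are lowest of the SS libraries in podocyte and proximal tubule transport genes.

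Macrophage and neutrophil genes rose in 16 of 19 tested (23 listed), with a median of 0.63. C1qb, a chain of complement C1q made by tissue macrophages, had 41, 56.1, 62.8, 37.3 and 39.1 FPKM in Per1KO, against 25.9, 22.0, 20.4, 25.7 and 19.9 FPKM in SS (0.998 ± 0.16, adjusted p = 0.0003). Cd68, a lysosomal protein of macrophages, had 10.9 to 17.2 FPKM in Per1KO and 7.27 to 9.40 FPKM in SS (0.74 ± 0.14, adjusted p = 0.00065). Mrc1, the mannose receptor, differed by 0.86 ± 0.19 (adjusted p = 0.003). Gpnmb, a glycoprotein of lipid-laden macrophages and injured cells that is on none of the lists, had 20.8, 40.6, 40.5, 28.6 and 27.8 FPKM in Per1KO, against 7.37, 8.44, 5, 9.54 and 13.0 FPKM in SS (1.77 ± 0.34, adjusted p = 0.0011).
The summed FPKM of the macrophage list was 617 to 926 in Per1KO libraries and 404 to 572 in SS libraries, while Cd163 and S100a8 stayed below 1 FPKM in all 10. By series, 12 genes rose among AZ00x libraries (median 0.87) and 1 among AZ44 to AZ61 libraries, where all 19 differences were positive (median 0.54).

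Other immune genes moved the same way. Complement rose in 10 of 16 genes and fell in 1 (median 0.63), interferon-response genes rose in 13 of 28 with 0 lower (median 0.34), and genes of MHC and antigen presentation rose in 6 of 13 with 0 lower. By series, 13 interferon-response genes rose and 1 fell among AZ00x libraries (median 0.49), and 1 rose among AZ44 to AZ61 libraries (median 0.23). For complement, 3 rose among AZ00x libraries (median 0.58), and 3 rose and 1 fell among AZ44 to AZ61 libraries (median 0.68). For MHC and antigen presentation, 3 rose among AZ00x libraries (median 0.24) and 1 among AZ44 to AZ61 libraries (median 0.37). Without SS replicates 4 and 5, 4 MHC and antigen presentation genes rose (median 0.23). C1s, a protease that starts the classical pathway, had 29.3 to 42.3 FPKM in Per1KO and 14.7 to 25.9 FPKM in SS (0.82 ± 0.16, adjusted p = 0.0011). Rsad2, the interferon-induced antiviral enzyme viperin, had 4.15 to 6.15 FPKM in Per1KO and 2.79 to 3.57 FPKM in SS (0.56 ± 0.11, adjusted p = 0.0016). Ciita, the switch for MHC class II genes, differed by 0.56 ± 0.13 (adjusted p = 0.0041).
Of 8 lymphocyte genes tested (17 listed), 4 rose. Cd4 had 16.3 to 28.7 FPKM in Per1KO and 14 to 16.5 FPKM in SS (0.53 ± 0.15, adjusted p = 0.012), although macrophages of the rat express it too. Ncf1, a subunit of the phagocyte NADPH oxidase that makes superoxide, had 5.84 to 9.72 FPKM in Per1KO and 4.13 to 6.10 FPKM in SS (0.66 ± 0.12, adjusted p = 0.0007).

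Cytokine genes rose in 6 of 18 tested, with 0 lower. Among AZ00x libraries 6 rose and 1 fell (median 0.71), and among AZ44 to AZ61 libraries 1 rose (median 0.17). Il24, an epithelial cytokine of the interleukin-10 family, had 7.73, 16.9, 13.2, 12.4 and 8.01 FPKM in Per1KO, against 1.12, 0.99, 2.06, 2.77 and 5.41 FPKM in SS, with no overlap (1.95 ± 0.40, adjusted p = 0.0018). Its relative Il19 had 13.2, 24.5, 16.4, 19.1 and 13.4 FPKM in Per1KO, against 0.45, 1.64, 4.64, 13.0 and 17.9 FPKM in SS. SS replicates 4 and 5 lay beside or within the Per1KO libraries, and Il19 was called (1.66 ± 0.62, adjusted p = 0.048) but passed in only 2 of 10 fits without 1 library.
Among immediate early genes, 5 of 13 rose and 0 fell (median 0.51), and 2 rose with only these 10 libraries in the fit. Among AZ00x libraries 10 rose (median 1.07). Among AZ44 to AZ61 libraries 0 were called by limma (median 0.09). There 1 of 13 had an unadjusted p below 0.05, beside 4293 of all 14899 genes. The difference between series passed for 4 of 13, all toward the AZ00x libraries, and without SS replicates 4 and 5, 9 rose. The mean level of the list was 4.39 to 4.89 in Per1KO libraries, against 3.53 and 3.42 in SS replicates 1 and 2 and 4.31, 4.52 and 4.19 in SS replicates 3 to 5. Myc, a growth-promoting transcription factor, had 15.5 to 23.3 FPKM in Per1KO and 5.44 to 12.5 FPKM in SS (1.17 ± 0.21, adjusted p = 0.00065). Of 24 cell cycle genes, 1 rose and 1 fell, beside 14.2% higher and 15.7% lower over all genes. Rhou, a small GTPase that shapes the actin skeleton, had 9.78, 11.3, 11.9, 9.11 and 7.14 FPKM in Per1KO, against 3.12, 2.40, 1.63, 2.82 and 3.34 FPKM in SS (1.57 ± 0.21, adjusted p = 5.8e-05).

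Markers of other cell types gave a check on what the cortex pieces held. Podocyte genes rose in 4 of 12 (median 0.47), beside 14.2% of all genes. Without SS replicates 4 and 5 they rose in only 1 of 12 (median 0.01). Their mean level, in log2(FPKM + 1), was 3.59 to 4.42 in Per1KO libraries and 2.60 to 4.07 in SS libraries. Endothelial genes rose in 2 of 13 and fell in 1, beside 14.2% higher and 15.7% lower over all genes. Of the 13 differences 12 were positive (median 0.29). The gene that fell was Vwf, the von Willebrand factor, with 1.36 to 4.02 FPKM in Per1KO and 4.37 to 9.22 FPKM in SS (-0.96 ± 0.18, adjusted p = 0.001). Of 4 inner medulla and papilla genes tested (7 listed), 2 rose, with a summed FPKM of 65.9 to 76.7 in Per1KO and 45.1 to 95.9 in SS. Their mean level was 3.68 to 3.90 in Per1KO libraries, against 3.01 to 3.13 in SS replicates 1 to 3 and 4.30 and 3.65 in SS replicates 4 and 5. The mean level of thick ascending limb markers was highest in SS replicates 4 and 5, at 5.23 to 5.64 in Per1KO libraries, against 5.19 to 5.66 in SS replicates 1 to 3 and 6.19 and 5.93 in SS replicates 4 and 5. The part of these segment markers in the other results was not tested. No called gene was found among 4 blood and 4 perirenal fat genes tested, whose summed FPKM overlapped between groups.

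Seen by number series, AZ00x libraries gave 1709 higher (11.5%) and 2133 lower genes (14.3%), and AZ44 to AZ61 libraries gave 667 higher (4.48%) and 953 lower genes (6.4%). In the same direction 684 genes were called in both, 17.8% of the AZ00x calls and 42.2% of the AZ44 to AZ61 calls, and 39 were called in opposite directions. These counts lean on the spread shared with the 2am libraries. With only the 10 libraries in the fit, 2019 genes were called in the first series and 37 in the second. The difference between the series passed for 459 genes (3.08%) toward AZ44 to AZ61 and 147 (0.987%) toward AZ00x. That count ran from 19 without Per1KO replicate 4 to 2084 without SS replicate 3.

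**Figure D4:**
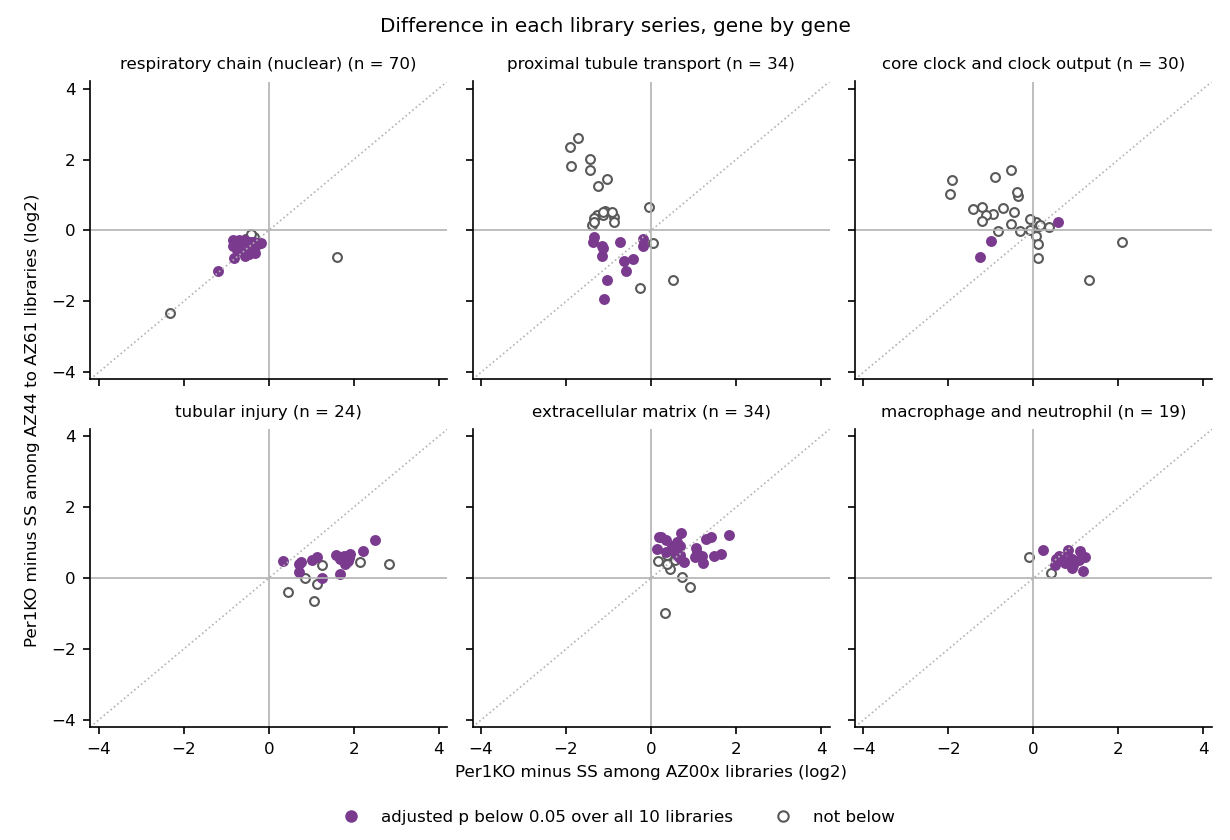
Per1KO minus SS in log2(FPKM + 1) among AZ00x libraries (horizontal) and among AZ44 to AZ61 libraries (vertical) for each tested member of 6 gene sets, filled where called over all 10 libraries; the dotted line marks equal differences. Most respiratory chain genes lie below 0 in both series and most matrix and macrophage genes above 0 in both, injury genes lie mostly below the dotted line, and many clock and proximal tubule transport genes lie where the signs differ.

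The difference between series also passed for 8 of 34 proximal tubule transport genes, all toward AZ44 to AZ61. Slc6a19, the neutral amino acid carrier of the early proximal tubule, had 22, 12, 32.4, 33.2 and 39.3 FPKM in Per1KO, against 99.4, 61.5, 46.6, 2.79 and 5.41 FPKM in SS. Its difference was -1.88 among AZ00x libraries and 1.82 among AZ44 to AZ61 libraries, and the difference between series was 3.71 ± 0.96 (adjusted p = 0.043).

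At 2am the same label comparison, which shares no library with that at 2pm, gave 641 higher and 692 lower genes. The Per1KO libraries at 2am were AZ284 to AZ289 and the SS libraries AZ233 to AZ249, so label and library numbers cannot be told apart there. List medians at 2pm and 2am were -0.49 and -0.44 for respiratory subunits, -0.44 and -0.44 for pyruvate and tricarboxylic acid cycle genes, 0.87 and 0.94 for injury genes, and 0.70 and 0.46 for matrix genes. The 2pm difference minus the 2am difference passed for 8 genes upward (0.0537%) and 7 downward (0.047%), and for 0 members of the injury, matrix and macrophage lists by limma. At an unadjusted p below 0.05 these lists held 1 of 24, 8 of 34 and 1 of 19, beside 2035 of all 14899 genes. Without Per1KO replicate 1 or without Per1KO replicate 3 only 1 gene passed, and without SS replicate 1 there were 167.

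Nr1d1 was the firmest of these. At 2am it had 5.90 to 7.86 FPKM in Per1KO and 1.06 to 2.58 FPKM in SS, the reverse order of 2pm. The difference of the label differences was -2.40 ± 0.27 (adjusted p = 0.00049), and it passed in 10 of 10 fits that left out 1 library. Hpdl, a mitochondrial dioxygenase-like enzyme, had -1.52 ± 0.27 (adjusted p = 0.027), and Creb3l1, a transcription factor that induces collagen secretion, 1.28 ± 0.22 (adjusted p = 0.027). Eng, encoding the endothelial TGF-beta co-receptor endoglin, had 1.10 ± 0.20 (adjusted p = 0.038) and Cldn1, a tight junction claudin, 0.88 ± 0.17 (adjusted p = 0.049), and these passed in 4 and 3 of 10 such fits.

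On 0.4% NaCl at 2pm few genes separated the labels, with 34 higher and 16 lower of 13436 tested. There the SS libraries were named OK60 to OK71 and the Per1KO libraries AZ038 to AZ043. Label and name series coincide in that group and cannot be told apart, which also holds for its side of the test across diets. The test across diets compares the label difference on 4% NaCl with that on 0.4% NaCl. The tables of the 2 diets were scaled separately, so an effect of the table cancels only as far as both labels share it. The difference passed for 1498 genes upward (11.3%) and 1561 downward (11.8%) of 13260. With total-fragment scaling the counts were 3285 upward and 487 downward.

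The lists that moved on high salt carried this difference. It passed downward for 36 of 70 respiratory subunits (median -0.40) and for 15 of 20 pyruvate and tricarboxylic acid cycle genes (median -0.45). With total-fragment scaling these counts were 17 and 7. It passed upward for 12 of 24 injury genes (median 0.88), 20 of 32 matrix genes (median 0.79) and 13 of 17 macrophage genes (median 0.74). The label difference itself on 0.4% NaCl had medians of -0.09, 0.03, -0.05, -0.06 and -0.12 for these 5 lists in the same order. For single genes the difference across diets was 2.08 ± 0.49 for Il24 (adjusted p = 0.0028), -1.79 ± 0.50 for Kap (adjusted p = 0.0095) and -1.12 ± 0.19 for Cycs (adjusted p = 0.00026). Nr1d1, in contrast, had 0.03 ± 0.21 (adjusted p = 0.94): on 0.4% NaCl it stood at 14.6 to 21.2 FPKM in Per1KO and 30.0 to 44.5 FPKM in SS.

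**Figure D5:**
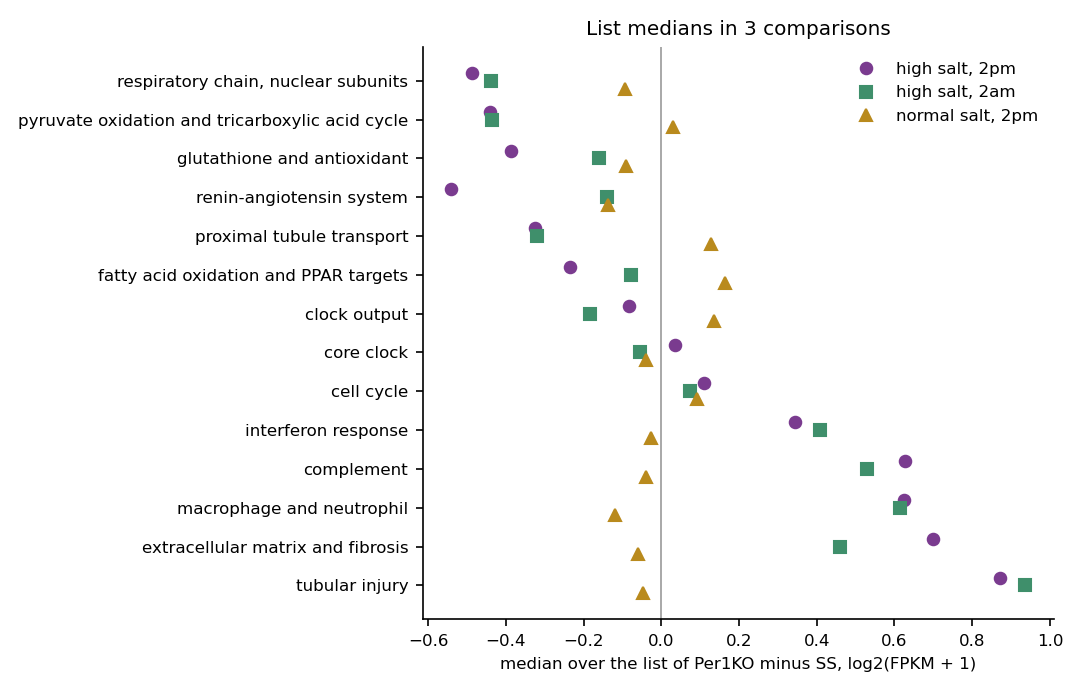
Median of Per1KO minus SS, in log2(FPKM + 1), over 14 gene lists at high salt 2pm (circles), high salt 2am (squares) and normal salt 2pm (triangles). The 2 high-salt medians lie on the same side of 0 for all of these 14 lists but core clock, and the normal-salt medians lie between -0.14 and 0.16. Among lists not plotted, the high-salt medians had opposite signs for gluconeogenesis, distal convoluted tubule, podocyte, endothelial, perirenal fat and blood genes.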

How the data were processed

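Poly(A) RNA of rat kidney cortex was sequenced. The submitters' processing notes name HISAT2 2.0.5 with fastp, featureCounts 1.5.0-p3 and StringTie 1.3.3b. For the genome build, nothing was found here. Per the labels' protocols, libraries were directional or non-directional, not stated for each, so antisense overlaps cannot be told apart. The authors deposited FPKM, 1 table per diet (34899 genes on high salt, 32545 on normal salt). FPKM times gene length gave whole fragments for 100% of values within 0.01. Median-ratio factors of the deposited FPKM were 0.9999 to 1, so its library size is not total fragments. No column lacked a sample, and no 2 libraries of a group were copies.

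Values were analysed as log2(FPKM + 1), keeping genes that reached 1 FPKM in 5 or more libraries of their table. limma 3.58.1 in R 4.3.3 fitted 4 group means over all 20 high-salt libraries (empirical Bayes with trend, two-sided), 6 means for the number series, and 8 means over 43 libraries for diet. The code was checked on simulated data. Named genes were the clock genes, the 12 largest rises and falls with a symbol, up to 4 genes of smallest p per list, the largest in both series and the largest differences between series, times and diets. Not all are printed. Slc5a2, Slc5a12, Cd163 and S100a8 were also named, chosen after their values were seen. The comparison, the 37 lists and this rule were chosen with earlier results of these data known. Alternatives were another pseudocount, no filter, other scalings, a replicate block, a series term, fewer libraries and voom on recovered fragments. Replicate numbers are in the titles. Same-numbered Per1KO and SS libraries had residual correlations of -0.23 to 0.0665, so the numbers were not taken as pairs. Some genes are not reported here.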

Additional observations from a re-analysis of the deposited data

Results flagged for a closer look

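In 164 groups of 5 libraries, 4 held a library far from the rest of its group, where chance gives about 1 in 20. Per1KO replicate 2 had 9.19 FPKM of Ifi44, an interferon-induced gene. SS replicate 4 had 853 FPKM of Aqp1. SS replicate 5 had 512 FPKM of Cat and 6.1 FPKM of Ncf1.

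The label difference itself differed between 2pm and 2am on high salt, by limma's interaction test, for 10 genes taken by size. The 2pm minus 2am values (log2) were -2.4 for Nr1d1, -1.52 for Hpdl, -0.818 for Tmem174, -0.631 for Dnajc30 and -0.543 for Aqp7. They were 1.28 for Creb3l1, 1.1 for Eng, 0.884 for Cldn1, 0.803 for Spry1 and 0.787 for St3gal1. Each but Nr1d1 lost its call in at least 2 of 10 fits without 1 library.

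Between diets at 2pm, the label difference on high salt minus that on normal salt passed for 11 genes examined. It was 2.08 for Il24, 0.764 for Eng, 0.713 for St3gal1 and 0.575 for Spry1. It was -2.47 for Fam134b, -2.02 for Oosp1, -1.79 for Kap and -1.79 for Gatm. For Tmem174 it was -0.832, for Aqp7 -0.582 and for Dnajc30 -0.536. Fam134b, Oosp1 and Gatm lost the call in 2, 2 and 4 of 10 fits without 1 library.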

How the results depend on the processing

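Over the 10 high-salt 2pm libraries, 4445 genes were called. A pseudocount of 0.1 gave 4357, no filter on low values 4177, median-ratio rescaling 4445, a series term 4110 and voom on recovered fragments 4525. The fit with a replicate block called 4360 and changed no call among 81 named genes, though the numbers pair no libraries. Only the 10 libraries in the fit gave 2592, AZ44 to AZ61 libraries alone 1620, and leaving out 1 library 3287 to 4686. Scaling to total fragments, and leaving out SS replicates 3 to 5, were added after seeing the data.

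With only the 10 libraries in the fit, AZ00x libraries gave 2019 calls and AZ44 to AZ61 libraries 37. Leaving out 1 library gave 1717 to 3700 and 116 (without Per1KO replicate 5) to 2843 (without SS replicate 3). The difference between series had 292 calls with no filter and 19 to 2084 with 1 library left out, and the label by time test 1 to 167. For each the cause was not tested.

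Among AZ44 to AZ61 libraries alone, calls were 7 for core clock, 35 for respiratory chain, 6 for tricarboxylic acid cycle, 6 for proximal tubule transport, 0 for injury, 14 for matrix and 1 for macrophage genes, with 2 libraries against 3. Core clock had 7 calls in AZ00x libraries alone, 3 to 7 with 1 library left out, 6 with total-fragment scaling and 8 without SS replicates 3 to 5. Total-fragment scaling left 39 respiratory chain and 10 tricarboxylic acid cycle calls. Proximal tubule transport had 25 without SS replicates 4 and 5 and 24 without SS replicates 3 to 5.

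Signs turned only for clock genes and for Slc5a2 and Slc5a12 among the 81. Slc6a19 is not among the 81, and its sign turned too, from 0.184 over all 10 libraries to -1.88 among AZ00x libraries. Of all 34 proximal tubule transport genes tested, 8 differences were positive over all 10 libraries. Among AZ00x libraries 2 were positive, and among AZ44 to AZ61 libraries 18. In AZ00x libraries alone the differences were -0.901 for Per2, -0.527 for Per3, -0.371 for Cry1, 1.31 for Arntl, 0.118 for Npas2, -1.92 for Dbp, -1.28 for Slc5a2 and -1.72 for Slc5a12. Without SS replicates 3 to 5 they were -0.138 for Per1, -0.894 for Per2, -0.48 for Per3, -0.376 for Cry1, 1.29 for Arntl, 0.176 for Npas2, -1.79 for Dbp, -1.12 for Slc5a2 and -1.43 for Slc5a12. Without SS replicates 4 and 5 they were -0.152 for Per2, 0.458 for Arntl, -1.04 for Dbp, -0.89 for Slc5a2 and -1.2 for Slc5a12. In AZ44 to AZ61 libraries alone they were 0.475 for Nr1d2, 0.673 for Tef, 1.04 for Hlf and -0.314 for Nfil3. Total-fragment scaling gave 0.118 for Nr1d2 and 0.106 for Tef, and a series term -0.244 for Dbp. Leaving out 1 library gave -0.767 to 0.0187 for Arntl, -0.291 to 0.0953 for Nr1d2, -0.561 to 0.547 for Dbp, -0.397 to 0.148 for Tef, -0.689 to 0.199 for Hlf, -0.121 to 1.43 for Slc5a2 and -0.314 to 1.34 for Slc5a12.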
